A study of Mus musculus with 34 samples.

Results

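The 6 genes Myod1, Des, Vim, Ttn, Ankrd1 and Tuba1a were followed in dystrophic and normal mouse muscle, with and without L-arginine, an amino acid that serves as the substrate of nitric oxide synthases. They were chosen by name, with earlier results of these data known, as genes of muscle formation, the cytoskeleton and the response to stretch. They are 6 of the 637 genes that both value tables name by a single symbol. Each table carried 10 probes for them among 1200: 5 for Ttn and 1 for each of the others. All 6 had usable values on 75% or more of each table's arrays and were tested.

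Total RNA of diaphragm and hindlimb muscle was hybridised to 34 arrays with 2 channels each. The groups were L-arginine-treated mdx mice, L-arginine-treated BL10 mice, untreated mdx mice and untreated BL10 mice, each for diaphragm and for hindlimb, which makes 8 groups. Each group had 1 array at 3, 5, 9 and 12 weeks of age, 4 in all, except the 2 untreated mdx groups, which had 5 because a Sample 1 and a Sample 2 were deposited at 12 weeks. The mdx mouse carries a mutation of the dystrophin gene and makes no full-length dystrophin, and BL10 is the dystrophin-positive strain it is set against. The sources used here do not give the dose, route and length of treatment or the number of animals. Nothing in the labels states that 2 arrays are 2 animals, and the spread between arrays may be technical. The ages served as the replicates of a strain, and the groups as the replicates of an age. The p-values below therefore cover a spread that mixes differences in age course between groups with noise between arrays. They cannot be read as covering spread between animals.

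Channel 1 of every array was labelled with 12-week RNA and channel 2 with the RNA of the named age, in each case of the strain in the channel label. A value is therefore a ratio of 2 RNAs and not an expression level, and a strain difference compares the ratios of mdx and BL10, each set against 12-week RNA of its own strain. The sources used here do not state which channel is on top. The ratios were taken as the named age over the 12-week RNA; the order of the labels makes this likely, without settling it, and with the ratio turned over, every higher below becomes lower, with the same size and the same test. The labels do not say whether the 12-week RNA of treated arrays came from treated mice. All treated arrays lie in one table and all untreated arrays in the other, with a platform each, and an effect of treatment cannot be told apart from one of table or platform. On 1 array, titled L-arginine BL10 hindlimb at 9 weeks, both channel labels read mdx; it stayed with the group its title gives.

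The median deposited ratio per array ran from 0.94 to 1.22 in the L-arginine table and from 0.73 to 1.08 in the untreated table. Ratios of 0 or below, which have no logarithm and were treated as missing, numbered 2 to 36 of 1200 on treated arrays and 0 to 225 on untreated arrays. The 3 arrays with over 100 of them, at 168, 225 and 128, were untreated BL10 diaphragm at 3 weeks and untreated BL10 hindlimb at 3 and at 12 weeks. Sample 1 and Sample 2 of untreated mdx muscle, which carry the same age, were nearly unrelated across probes. Their Spearman rho was 0.0740 in diaphragm and 0.0164 in hindlimb. Both channels of these arrays carry the 12-week mdx label, so there was no labelled difference for them to share. A low rho here therefore does not measure how well an array repeats. Whether the RNA came from muscle could not be checked against marker genes, since a ratio of 2 muscle RNAs carries no level.

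Myod1 encodes a transcription factor that commits cells to the muscle lineage and is active in the satellite cells that rebuild injured fibres. Desmin, from Des, is the intermediate filament that ties myofibrils together at the Z-disc in mature muscle. Vimentin, from Vim, is the intermediate filament of fibroblasts, leukocytes and newly forming muscle cells. Titin, from Ttn, reaches from the Z-disc to the M-line of the sarcomere and acts as its molecular spring. Ankyrin repeat domain 1, from Ankrd1, is a small protein that binds titin's spring region and also enters the nucleus, and its transcript is known to respond to stretch, injury and overload of muscle. Tuba1a encodes an alpha-tubulin, a building block of microtubules, which form a lattice under the fibre membrane. Fibres without dystrophin are known to be damaged by contraction and to go through rounds of degeneration and regeneration, with inflammation and scarring.

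The genes lie apart in the genome of RefSeq's GRCm38.p6 assembly: Des on chr1:75360292-75368579, Vim on chr2:13574311-13582826, Ttn on chr2:76703980-76982557, Myod1 on chr7:46376474-46379092, Tuba1a on chr15:98949847-98953501 and Ankrd1 on chr19:36111965-36119844. The RefSeq promoter table held an entry for 5 of the 6, all but Myod1. The promoters of Ankrd1 and Tuba1a are shown because these were the 2 genes whose strain difference passed the test. Each runs from 250 bases before the gene's start to 50 bases after it, on the minus strand, at chr19:36119795-36120094 for Ankrd1 and chr15:98953452-98953751 for Tuba1a. Capitals mark 3 motifs searched on both strands: the MCAT element CATTCC, the E-box CANNTG, and the TATA box in the form TATATAA. MCAT elements are bound by TEAD factors, and E-boxes by MyoD and many others. On the strand shown, the MCAT elements of Ankrd1 read as the reverse complement, GGAATG.
Ankrd1: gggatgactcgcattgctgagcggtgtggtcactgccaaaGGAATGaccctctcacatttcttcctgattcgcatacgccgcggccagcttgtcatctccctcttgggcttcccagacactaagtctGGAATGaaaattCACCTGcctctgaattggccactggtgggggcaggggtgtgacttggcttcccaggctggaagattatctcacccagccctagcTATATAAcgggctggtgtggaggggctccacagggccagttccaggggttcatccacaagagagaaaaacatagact
Tuba1a: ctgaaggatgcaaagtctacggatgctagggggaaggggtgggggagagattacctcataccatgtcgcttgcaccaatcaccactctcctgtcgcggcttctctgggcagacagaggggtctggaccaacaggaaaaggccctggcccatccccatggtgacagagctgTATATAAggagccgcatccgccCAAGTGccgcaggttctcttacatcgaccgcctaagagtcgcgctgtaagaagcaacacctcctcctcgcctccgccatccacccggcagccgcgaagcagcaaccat
The Ankrd1 promoter held 2 MCAT elements, 1 E-box and 1 TATA box, and the Tuba1a promoter held no MCAT element, 1 E-box and 1 TATA box. No 2 of these matches overlapped. Over all 32544 promoters of the table, 14.6% held an MCAT element, 72.3% an E-box and 3.22% this TATA box. Of the other 3 promoters, Ttn's held 1 MCAT element and 1 E-box, Des's held 2 E-boxes and no MCAT element, and Vim's held none of the 3 motifs. A match describes letters only, and binding was not measured.

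In L-arginine-treated muscle, Ankrd1 stood above 1 on every mdx array, near 1 in BL10 diaphragm and on both sides of 1 in BL10 hindlimb. In treated mdx diaphragm its deposited ratios at 3, 5, 9 and 12 weeks were 2.44, 4.47, 1.70 and 2.27, against 0.98, 1.04, 1.01 and 1.06 in treated BL10 diaphragm. All 4 mdx diaphragm arrays were above all 4 BL10 diaphragm arrays, and the 5-week array was the highest of them. Of the 633 genes, 5.69% had treated diaphragm groups that did not overlap, in either direction. In treated mdx hindlimb the ratios at those ages were 2.59, 1.71, 2.33 and 2.66, against 0.83, 1.52, 0.66 and 1.62 in treated BL10 hindlimb. Here the groups came closer, with the lowest mdx array at 1.71 and the highest BL10 array at 1.62, both hindlimb. Of the 633 genes, 6.16% had hindlimb groups that did not overlap. Arrays were not centred, and the 1.71, in mdx at 5 weeks, came from an array with a median ratio of 1.22. It ranked 191.5 from the highest of 618 genes there. The 1.62, in BL10 at 12 weeks, ranked 87.5 from the highest of 626 genes, on an array with a median of 1.04. Over both tissues the mean ratio, averaged as log2, was 2.41 in mdx and 1.05 in BL10 (log2 1.27 ± 0.44 and 0.07 ± 0.42, SD, n = 8 arrays each).

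The difference in Ankrd1 was tested in a fit over all 633 genes of the L-arginine table, with group and age as terms and adjustment over all genes. Averaged over both tissues, mdx was higher than BL10 by 1.20 ± 0.21 on the log2 scale (SE), or 2.30-fold (limma, adjusted p = 0.0211). In diaphragm alone the difference was 1.32 ± 0.30 (adjusted p = 0.176) and in hindlimb alone 1.09 ± 0.30 (adjusted p = 0.107), of similar size but neither past the threshold of 0.05 with 4 arrays a group. The difference between the tissues in this strain difference was -0.23 ± 0.42, hindlimb minus diaphragm (adjusted p = 0.911). Compared age by age, mdx was above BL10 in 8 of 8 pairs, by 0.17 in hindlimb at 5 weeks at the least and by 2.10 in diaphragm at 5 weeks at the most.

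Tuba1a followed the same order in treated muscle with smaller and tighter mdx ratios than those of Ankrd1. In treated mdx diaphragm its ratios at 3, 5, 9 and 12 weeks were 1.82, 1.77, 1.66 and 1.80, against 1.47, 1.06, 1.42 and 1.03 in treated BL10 diaphragm. In treated mdx hindlimb they were 1.80, 1.49, 1.58 and 1.97, against 0.67, 1.23, 0.91 and 0.80 in treated BL10 hindlimb. The 8 mdx arrays spanned only 1.49 to 1.97, and the 8 BL10 arrays spanned 0.67 to 1.47, so the strains did not overlap but nearly touched. The 1.49, in mdx hindlimb at 5 weeks, ranked 250 from the highest of 618 genes, on an array with a median ratio of 1.22. The 1.47, in BL10 diaphragm at 3 weeks, ranked 41 from the highest of 636 genes, on an array with a median of 1.01. Averaged over both tissues, mdx was higher than BL10 by 0.73 ± 0.15 on the log2 scale, or 1.66-fold (limma, adjusted p = 0.0378). The hindlimb difference was 0.95 ± 0.21 (adjusted p = 0.0585) and the diaphragm difference 0.52 ± 0.21 (adjusted p = 0.998), and the difference between the tissues was 0.43 ± 0.30 (adjusted p = 0.746). Probe sequences were not used here, so signal from other alpha-tubulin genes with near-identical sequence cannot be separated from that of Tuba1a.

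**Figure D1:**
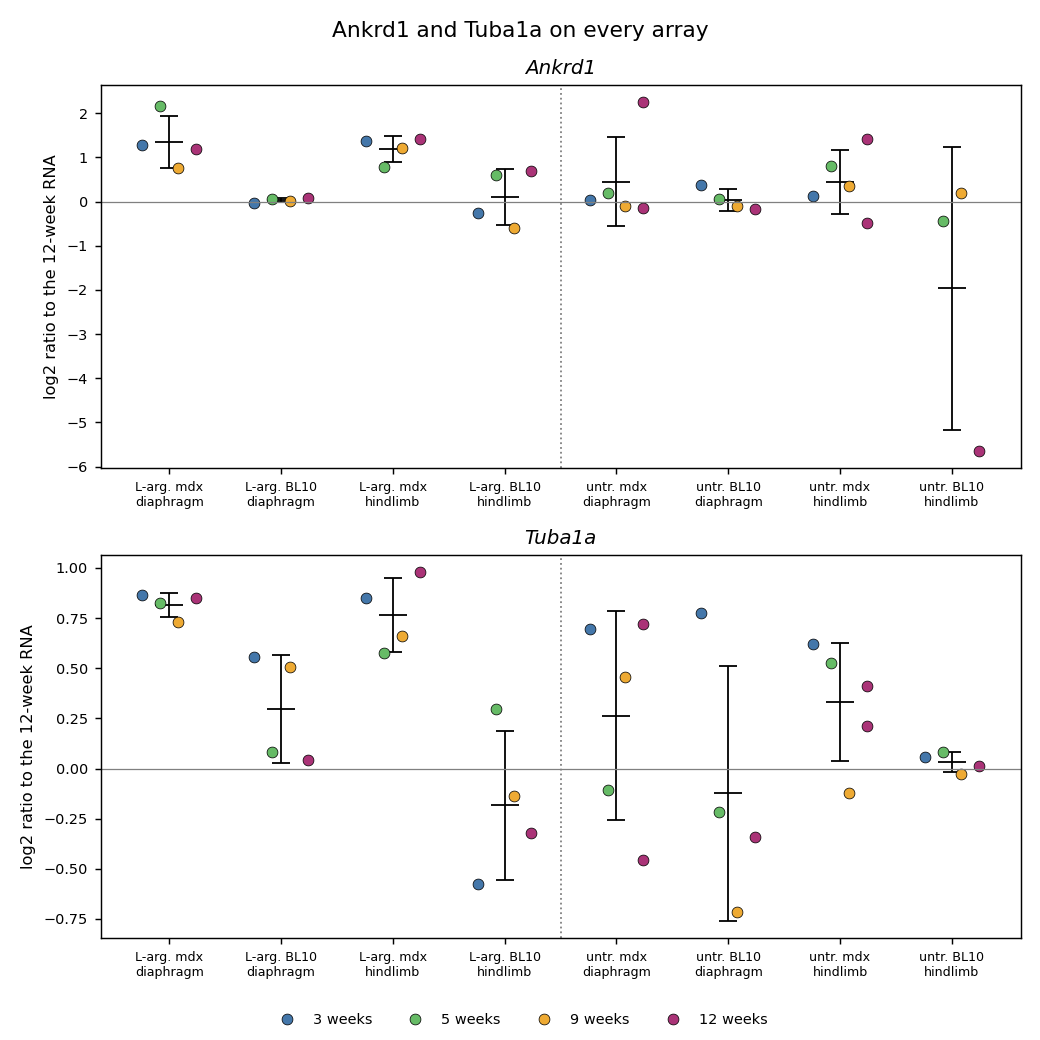
Log2 ratio of Ankrd1 (upper panel) and Tuba1a (lower panel) on every array, by group along the horizontal axis, with ages as colours and bars giving the mean and SD of each group; the dotted line parts the L-arginine table on the left from the untreated table on the right. In the L-arginine table the mdx arrays lie above the BL10 arrays for both genes, and in the untreated table the strains overlap, with single arrays at 4.75 (log2 2.25) and 0.02 (log2 -5.64) for Ankrd1.

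These 2 genes were 2 of the 10 genes, 1.58% of the 633 tested, that passed the test for the mean of both tissues, all 10 of them higher in mdx. The other 4 genes described here did not pass. By a simpler count, 4 genes, 0.632% of the 633, had all mdx arrays on one side of all BL10 arrays in the L-arginine table: Ankrd1, Tuba1a and the macrophage genes Lyz2 (lysozyme) and C1qb (a complement subunit), all 4 with the mdx arrays above. In diaphragm alone 0.158% of the 633 genes passed and in hindlimb alone 0.158%, none of them among the 6. No gene passed for the difference between tissues in the L-arginine table (0%; 42 genes had an unadjusted p under 0.05).

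Both calls depended on single arrays. Ankrd1 no longer passed without the 9-week array of treated BL10 hindlimb, the one with mdx in its channel labels (1.12 ± 0.21, adjusted p = 0.0574), or without the 9-week array of treated mdx hindlimb (1.13 ± 0.22, adjusted p = 0.0721). Tuba1a kept its call in only 2 of the 16 fits that left out 1 array, with differences that stayed between 0.59 and 0.84 over all alternatives tried.

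Macrophage and fibroblast markers were higher in the same contrast, though not each of them by much. All 4 tested macrophage markers (C1qb, Cd68, Gpnmb and Lyz2) were above 0 for mdx minus BL10 in the L-arginine mean of both tissues, 2 of them past the test, with a median of 0.81, against a median of 0.06 over all genes. Lyz2 was higher in mdx by 1.38 ± 0.20 (adjusted p = 0.00445) and C1qb by 0.73 ± 0.14 (adjusted p = 0.0335). All 7 tested fibroblast markers, Vim among them, were above 0, 3 of them past the test, with a median of 0.61. Of these, Col5a2 at 0.02 and Fmod at 0.06 did not exceed the median of all genes. Both were below 0 in treated diaphragm (-0.11 and -0.38) and above 0 in treated hindlimb (0.16 and 0.51). Of the 16 tested muscle fibre markers, Des and Ttn among them, 8 were above 0, none past the test, with a median of 0.00. The mean log2 ratio of the macrophage markers ran over arrays from 0.75 to 1.04 in treated mdx diaphragm against 0.02 to 0.57 in treated BL10 diaphragm, and from 0.99 to 1.32 in treated mdx hindlimb against -0.39 to 0.36 in treated BL10 hindlimb. That of the fibroblast markers ran from 0.46 to 0.93 in treated mdx diaphragm against -0.12 to 0.40 in treated BL10 diaphragm, and from 0.78 to 1.62 in treated mdx hindlimb against 0.10 to 1.10 in treated BL10 hindlimb. None passed among 3 satellite cell markers (Myod1 among them, 3 above 0), 1 endothelial marker (not above 0), 2 adipocyte markers (none above 0) and 5 liver markers (4 above 0). As ratios they have no 0 level, so no marker can be said to be absent. Their part in the Ankrd1 and Tuba1a differences was not tested. By the channel labels each ratio is set against RNA of its own strain. A higher ratio in mdx therefore does not show more marker RNA, or more cells of a type, in mdx than in BL10. Whether the channels or the reference RNAs set these marker differences was not tested. In whole muscle more cells of a type and more RNA per cell cannot be told apart either.

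In the untreated table the strain differences of Ankrd1 and Tuba1a did not pass the test, and those of Ankrd1 rested on single arrays. In untreated mdx diaphragm the Ankrd1 ratios at 3, 5 and 9 weeks were 1.03, 1.15 and 0.94, with 4.75 on Sample 1 and 0.91 on Sample 2 at 12 weeks, against 1.30, 1.04, 0.93 and 0.89 at 3, 5, 9 and 12 weeks in untreated BL10 diaphragm. In untreated mdx hindlimb Ankrd1 measured 1.10, 1.75 and 1.27, with 2.68 on Sample 1 and 0.71 on Sample 2, against 0.74, 1.14 and 0.02 at 5, 9 and 12 weeks in untreated BL10 hindlimb, where the 3-week value was -1.35 and was left out of the fit. Ankrd1 was thus high on Sample 1 of both mdx tissues and below 1 on Sample 2 of both. The macrophage markers averaged 1.31 (log2) on Sample 1 and -0.34 on Sample 2 of untreated mdx diaphragm, and 1.16 on Sample 1 and 0.26 on Sample 2 of untreated mdx hindlimb. The fibroblast markers averaged 1.14 on Sample 1 and 0.26 on Sample 2 of untreated mdx diaphragm, and 0.61 on Sample 1 and 0.14 on Sample 2 of untreated mdx hindlimb. The part of either list in the Ankrd1 values was not tested.

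The untreated Ankrd1 difference, mdx minus BL10, was 0.51 ± 0.90 in diaphragm (adjusted p = 0.903), 2.57 ± 1.00 in hindlimb (adjusted p = 0.387) and 1.54 ± 0.67 for both (adjusted p = 0.326). Without Sample 1 of mdx diaphragm, at 4.75, the diaphragm difference was -0.036 ± 0.84 (adjusted p = 0.984). The hindlimb value rested on the BL10 array at 12 weeks with a ratio of 0.02. With the 3 untreated BL10 arrays that had over 100 values of 0 or below left out, an alternative chosen after seeing the data, it was 0.51 ± 0.65 (adjusted p = 0.997), and the mean of both tissues was 0.54 ± 0.44 (adjusted p = 0.799). Untreated BL10 hindlimb then kept only its arrays at 5 and 9 weeks. No gene passed in untreated diaphragm (0% of 637; 62 had an unadjusted p under 0.05) or for the mean of both tissues (0%; 90 unadjusted), and 0.157% of the 637 passed in untreated hindlimb, none of the 6 among them. No gene of the untreated table had all mdx arrays on one side of all BL10 arrays (0%), and no gene passed for the difference between tissues (0%; 31 unadjusted).

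Tuba1a in untreated mdx diaphragm measured 1.62, 0.93 and 1.37 at 3, 5 and 9 weeks, with 1.65 for Sample 1 and 0.73 for Sample 2, against 1.71, 0.86, 0.61 and 0.79 in untreated BL10 diaphragm. In untreated mdx hindlimb it measured 1.54, 1.44 and 0.92, 1.33 on Sample 1 and 1.16 on Sample 2, against 1.04, 1.06, 0.98 and 1.01 in untreated BL10 hindlimb. The strains overlapped in both tissues, although mdx was above BL10 at the same age in 6 of 8 pairs. The difference over both tissues was 0.36 ± 0.20 (adjusted p = 0.400).

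**Figure D2:**
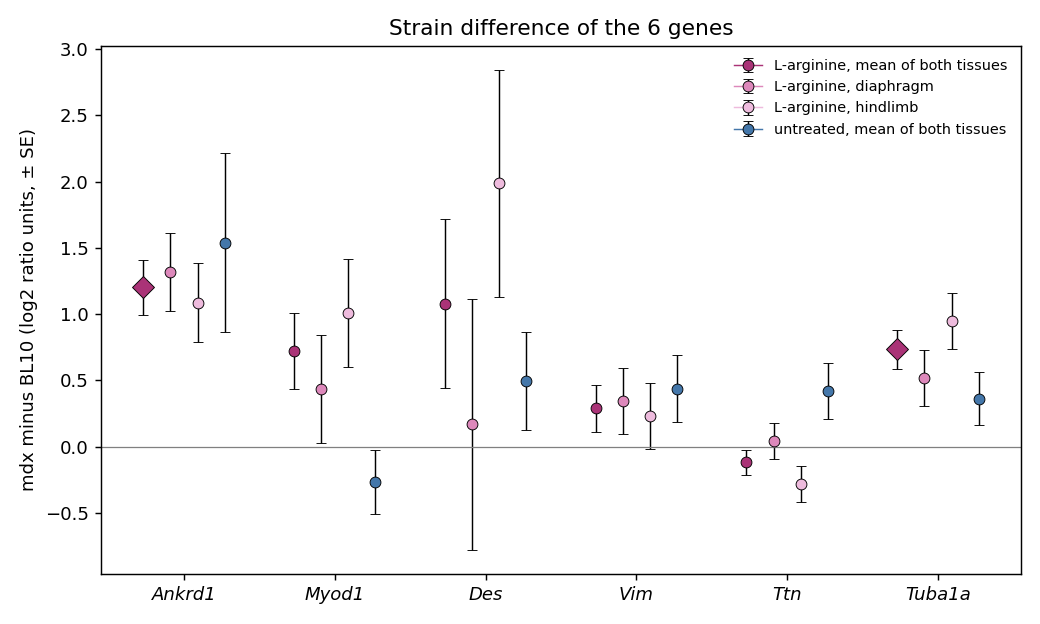
Strain difference, mdx minus BL10 in log2 ratio units (vertical axis, bars ± SE), of the 6 genes for the L-arginine mean of both tissues, L-arginine diaphragm, L-arginine hindlimb and the untreated mean of both tissues; diamonds mark an adjusted p under 0.05. Only Ankrd1 (1.20) and Tuba1a (0.73) carry a diamond, both for the L-arginine mean, while Des has the widest bars within the L-arginine table and Ttn is the only gene with estimates below 0 there.

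For Myod1 the difference between strains was above 0 in treated muscle and passed the test in neither table. In untreated muscle it was below 0 with values of 0 or below left out, and that sign depended on leaving them out. In treated mdx hindlimb its ratios at 3, 5, 9 and 12 weeks were 0.87, 3.70, 1.79 and 1.65, against 0.62, 0.86, 1.27 and 0.86 in treated BL10 hindlimb. In treated mdx diaphragm Myod1 measured 1.28, 1.03, 1.14 and 0.96, against 1.03, 0.46, 0.76 and 1.19 in treated BL10 diaphragm. At the same age mdx was above BL10 in 7 of 8 pairs, the 12-week diaphragm pair being the other, but the strains overlapped. The differences were 1.01 ± 0.41 in hindlimb (adjusted p = 0.217), 0.44 ± 0.41 in diaphragm (adjusted p = 0.998) and 0.72 ± 0.29 for both (adjusted p = 0.287). Once a running median over 51 neighbouring probes was taken off each array, the hindlimb difference was 1.12 ± 0.24 (adjusted p = 0.0433) and the mean of both tissues 0.76 ± 0.17 (adjusted p = 0.0473), past the threshold in both cases.

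In untreated muscle Myod1 measured 1.83, 1.15 and 1.05 at 3, 5 and 9 weeks in mdx diaphragm, with 0.87 on Sample 1 and 0.80 on Sample 2, against 0.88, 1.85 and 0.86 at 5, 9 and 12 weeks in BL10 diaphragm. It measured 0.91, 1.19 and 0.82 in mdx hindlimb, with 1.03 on Sample 1 and 1.39 on Sample 2, against 1.32, 1.5 and 1.37 at 5, 9 and 12 weeks in BL10 hindlimb. Both BL10 values at 3 weeks were below 0 and missing. In hindlimb the lowest of the 3 BL10 arrays lay above 4 of the 5 mdx arrays. The difference over both tissues was -0.27 ± 0.24 (adjusted p = 0.573). The change in the strain difference between the tables, treated minus untreated, was 0.91 ± 0.37 (limma, adjusted p = 0.509). It turned to -0.73 ± 1.06 when values of 0 or below were set to the lowest positive value of their array. Myod1 had a value on every treated array, so for this gene that setting altered only the untreated BL10 values at 3 weeks. The sign of the untreated difference thus depends on how these values are handled.

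Des had the widest spread of the 6 genes in the L-arginine table. In treated mdx diaphragm Des measured 1.70, 1.86 and 0.55 at 5, 9 and 12 weeks, against 1.19, 0.24 and 1.08 at 3, 5 and 12 weeks in treated BL10 diaphragm. In treated mdx hindlimb they were 0.55, 4.8 and 2.6 at 3, 9 and 12 weeks, against 0.13, 1.01, 0.67 and 0.62 in treated BL10 hindlimb. The 3 further values of this table, 1 each in mdx diaphragm, BL10 diaphragm and mdx hindlimb, were below 0. The hindlimb difference was the largest of any of the 6 genes in the L-arginine table, at 1.99 log2 units, but its SE of 0.86 left it short of the threshold (adjusted p = 0.260). In untreated muscle Des ran from 0.52 to 2.07 in mdx and from 0.11 to 1.42 in BL10, with a difference of 0.50 ± 0.37 (adjusted p = 0.514).

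Vim differed less. Its ratios ran from 0.80 to 2.73 in treated mdx muscle and from 0.77 to 1.77 in treated BL10 muscle, and both of these highest values were from the 5-week hindlimb arrays. In untreated muscle they ran from 0.82 to 2.39 in mdx, the highest on Sample 1 of diaphragm, and from 0.62 to 1.47 in BL10. The strain difference over both tissues was 0.29 ± 0.18 in treated muscle (adjusted p = 0.508) and 0.44 ± 0.25 in untreated muscle (adjusted p = 0.434). At the same age mdx was above BL10 in 7 of 8 treated pairs and in 6 of 7 untreated pairs, without passing the test.

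**Figure D3:**
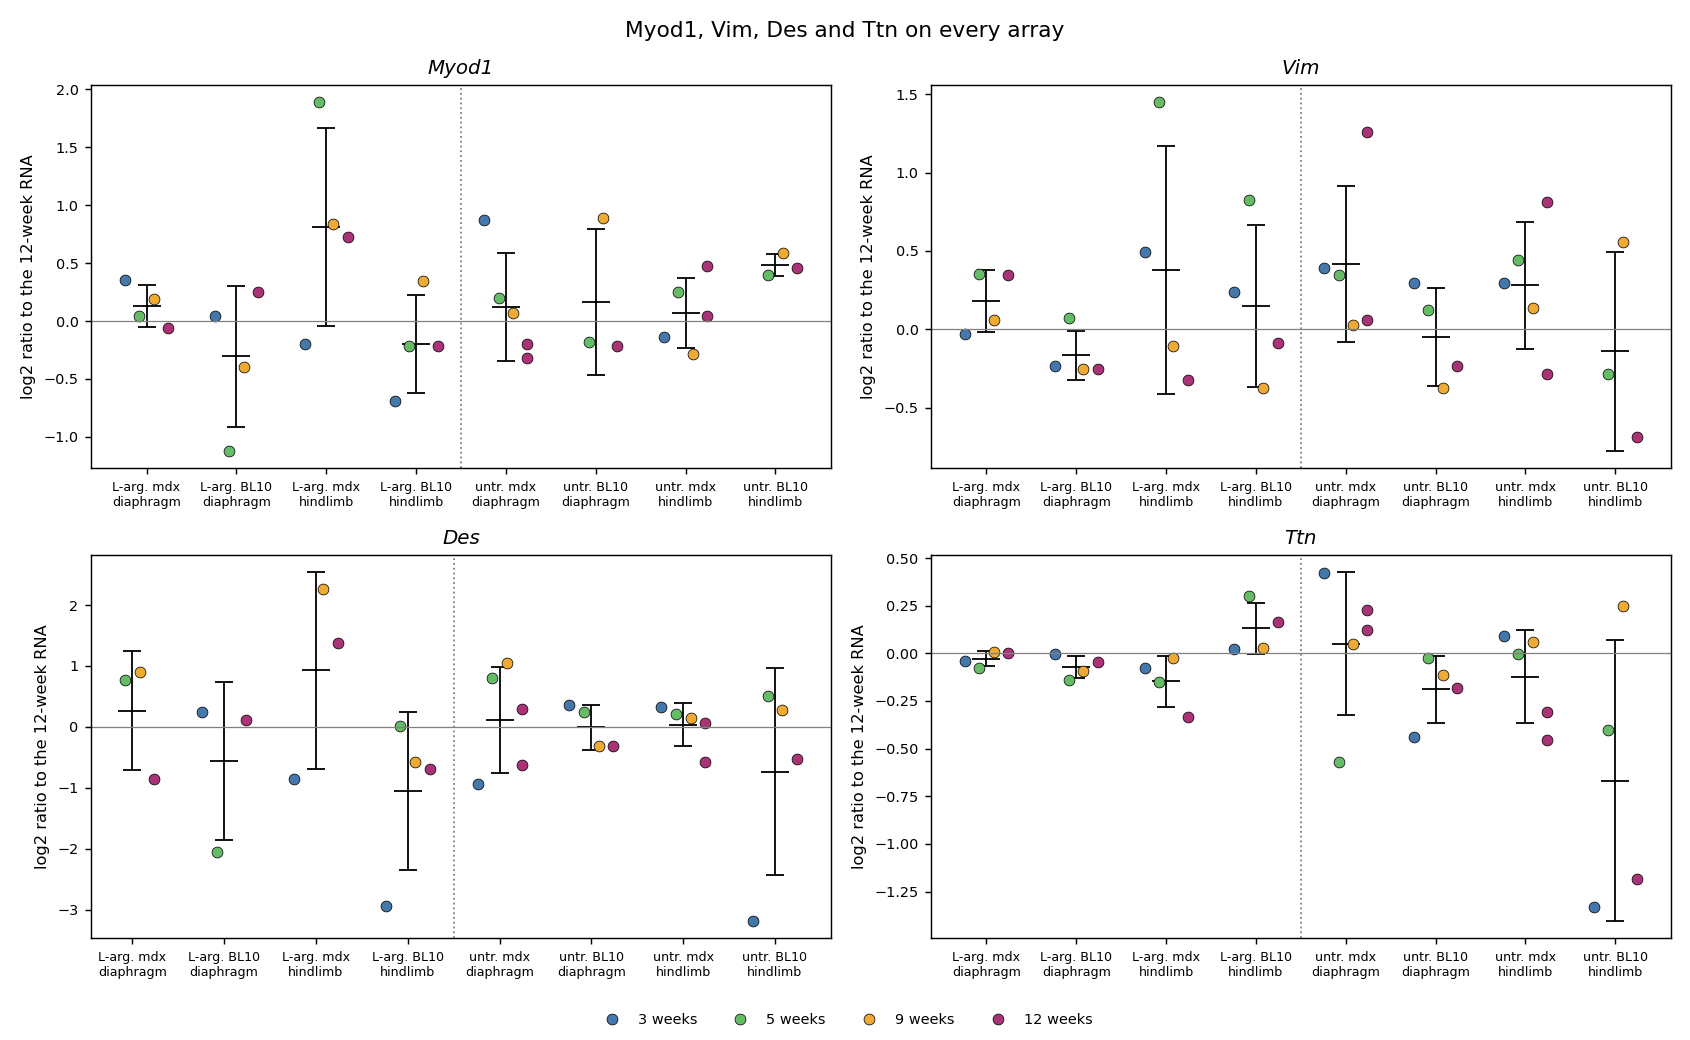
Log2 ratio of Myod1, Vim, Des and Ttn on every array, by group along the horizontal axis, with ages as colours and bars giving the mean and SD of each group; the L-arginine table is left of the dotted line, and each panel has its own vertical scale. Over both tissues together, the strains overlap in each of the 4 genes in both tables; the lowest points of Ttn, at ratios of 0.397 and 0.440, are untreated BL10 hindlimb at 3 and 12 weeks.

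Ttn, averaged over its 5 probes, stayed close to 1 in treated muscle. It ran from 0.793 to 1.00 in treated mdx muscle and from 0.909 to 1.23 in treated BL10 muscle. In hindlimb the 4 mdx arrays (0.947, 0.900, 0.983 and 0.793 at 3, 5, 9 and 12 weeks) all lay below the 4 BL10 arrays (1.02, 1.23, 1.02 and 1.12), against 6.16% of the 633 genes whose hindlimb groups did not overlap in either direction. Of the 6 genes, only Ttn had an estimate below 0 for mdx minus BL10 in treated hindlimb. That difference was -0.28 ± 0.14 (adjusted p = 0.290), and the mean of both tissues was -0.12 ± 0.10 (adjusted p = 0.602). In untreated muscle Ttn ran from 0.673 to 1.34 in mdx and from 0.397 to 1.19 in BL10, with a difference of 0.42 ± 0.21 (adjusted p = 0.362). The change in the strain difference between tables, treated minus untreated, was -0.53 ± 0.24 (adjusted p = 0.509).

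The Ttn average hides probes that did not move together. Probes 1 to 3 are listed under the same transcript entry, and probes 4 and 5 under 2 others, while the numbering within the shared entry does not match between tables. Over the 16 treated arrays, the 3 pairs within the shared entry had Pearson correlations of -0.11 to 0.61, and over the 18 untreated arrays of 0.22 to 0.74. The gap between the highest and lowest Ttn probe of an array had a median of 0.86 log2 units in the L-arginine table and 0.85 in the untreated table, and reached 4.71 on 1 array of the untreated table. Probe 1 of the L-arginine table measured 0.52, 0.67, 0.95 and 0.58 in treated mdx hindlimb, against 1.11, 1.28, 1.18 and 1.49 in treated BL10 hindlimb. Its strain difference of -0.93 ± 0.21, in a fit over probes, just missed the threshold (adjusted p = 0.0516), whereas probe 5 gave 0.27 ± 0.26 (adjusted p = 0.590). The low untreated BL10 hindlimb averages came from 2 probes above all: probe 4 measured 0.05 at 3 weeks and 0.23 at 12 weeks, and probe 3 measured 0.20 and 0.15, while probe 5 measured 1.31 and 1.02. A further 3 probes per table, annotated to Ttn together with Plekha3, were left out because they carry more than 1 symbol.

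**Figure D4:**
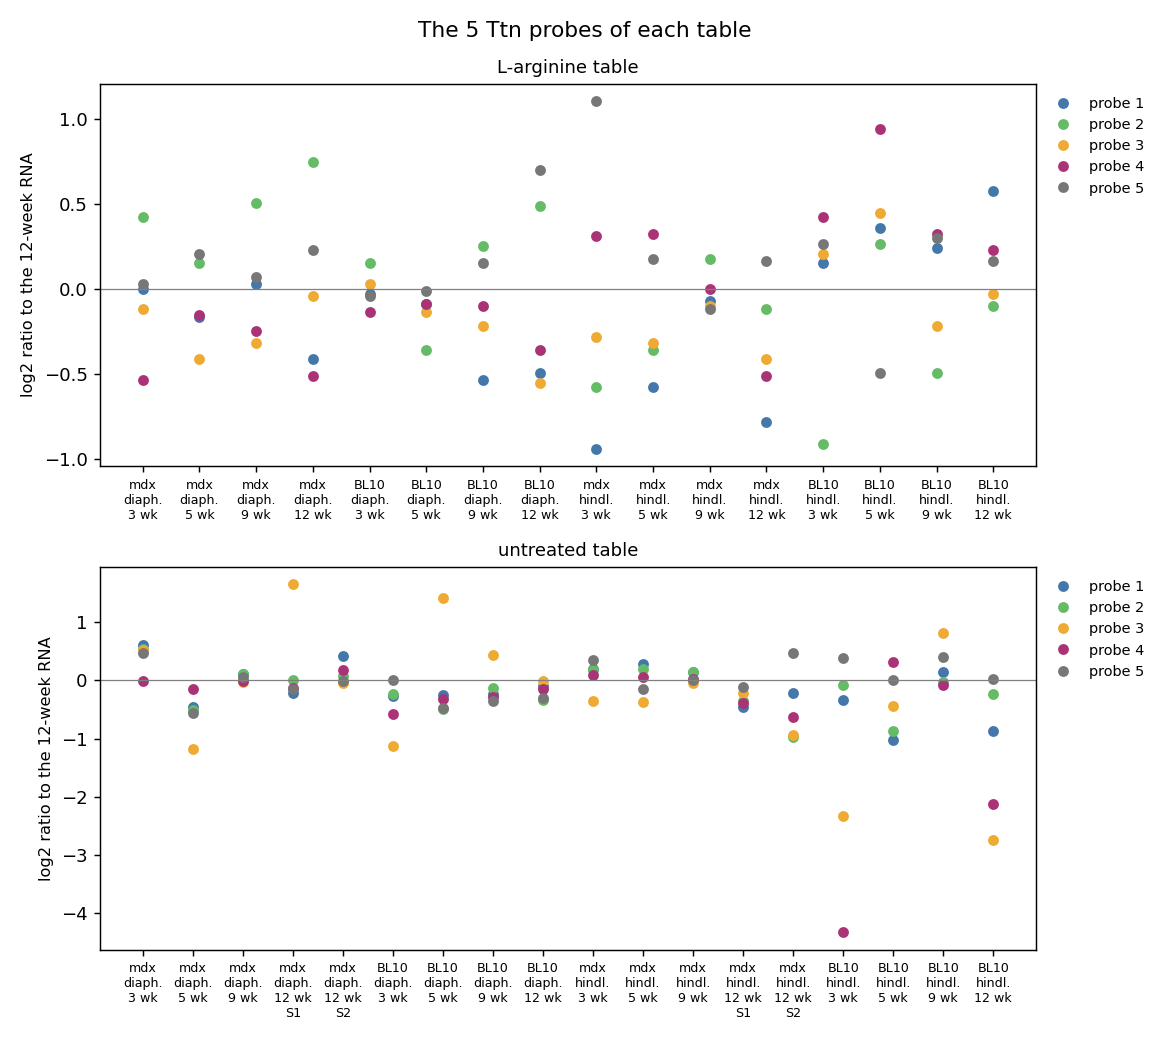
Log2 ratio of each of the 5 Ttn probes (colours) on every array along the horizontal axis, for the L-arginine table (upper panel) and the untreated table (lower panel, with S1 and S2 for Sample 1 and Sample 2). Probes spread by a median of 0.86 and 0.85 log2 units within an array, and the widest spread is in untreated BL10 hindlimb at 3 weeks.

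None of the 6 genes differed by age past the test. Against 12 weeks, no gene of the L-arginine table passed at 3 weeks (0%; 29 had an unadjusted p under 0.05), 5 weeks (0%; 50) or 9 weeks (0%; 22), and no gene of the untreated table did at 3 weeks (0%; 51), 5 weeks (0%; 21) or 9 weeks (0%; 21). Vim at 5 weeks in the L-arginine table had the smallest adjusted p of the 6 for age in that table. It was higher than at 12 weeks by 0.75 ± 0.25 (limma, adjusted p = 0.549). Its 5-week array was the highest of the 4 ages in each of the 4 treated groups, though in mdx diaphragm nearly tied, at 1.28 against 1.27 at 12 weeks. Arrays were not centred, and the 5-week hindlimb arrays had the highest array medians of that table, 1.22 in mdx and 1.13 in BL10. The 5-week diaphragm arrays had medians of 0.99 in mdx and 0.95 in BL10.

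The 12-week arrays carry the same age on both channels, and so give a view of how far a ratio lies from 1 without a labelled difference in age. Ankrd1 measured 2.27 in treated mdx diaphragm and 2.66 in treated mdx hindlimb on these arrays, where 4.09% and 4.43% of genes lay as far from 1. It measured 1.06 in treated BL10 diaphragm and 1.62 in treated BL10 hindlimb. Tuba1a measured 1.80 and 1.97 in treated mdx diaphragm and hindlimb, where 8.50% and 11.1% of genes lay as far from 1, against 1.03 and 0.80 in treated BL10 diaphragm and hindlimb. Both genes were thus above 1 on the treated mdx arrays that carry 12 weeks on both channels. Untreated 12-week arrays gave Ankrd1 ratios as far from 1, in both directions. These were 4.75 and 2.68 on Sample 1 of mdx diaphragm and hindlimb (1.27% and 2.04% of genes as far from 1) and 0.02 in BL10 hindlimb (0.350%). The rest were nearer 1, at 0.91 and 0.71 on Sample 2 of mdx diaphragm and hindlimb and 0.89 in BL10 diaphragm. Without any 12-week array the treated strain difference, as the mean of both tissues, was 1.30 ± 0.25 for Ankrd1 (adjusted p = 0.112) and 0.63 ± 0.18 for Tuba1a (adjusted p = 0.429), both no longer past the threshold.

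Between treated and untreated arrays, none of the 6 genes passed the test in any of the 4 combinations of strain and tissue, in a fit over the 632 genes tested in both tables. The background there was 0% in BL10 diaphragm (49 genes with an unadjusted p under 0.05), 4.91% in BL10 hindlimb, 0.633% in mdx diaphragm and 3.01% in mdx hindlimb. In mdx diaphragm, treated minus untreated was 0.85 ± 0.71 for Ankrd1 (adjusted p = 0.717) and 0.54 ± 0.25 for Tuba1a (adjusted p = 0.364). In mdx hindlimb it was 0.71 ± 0.71 for Ankrd1 (adjusted p = 0.625), 0.42 ± 0.25 for Tuba1a (adjusted p = 0.373) and 0.73 ± 0.34 for Myod1 (adjusted p = 0.241). The median of all 632 genes was itself 0.22 in mdx hindlimb, and -0.06 in mdx diaphragm.

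The BL10 hindlimb values between the tables were set by a few untreated arrays. Treated minus untreated was 0.80 ± 0.24 for Ttn (adjusted p = 0.0530) and 2.11 ± 0.81 for Ankrd1 (adjusted p = 0.131), where the median of all genes was 0.24. Without the 3 untreated BL10 arrays that had over 100 values of 0 or below, the differences were 0.19 ± 0.23 for Ttn (adjusted p = 0.893) and 0.19 ± 0.53 for Ankrd1 (adjusted p = 0.958). Untreated BL10 hindlimb then kept only its arrays at 5 and 9 weeks, at 0.758 and 1.19 for Ttn and 0.74 and 1.14 for Ankrd1. Without the untreated BL10 hindlimb array at 9 weeks, both passed, at 1.09 ± 0.23 for Ttn (adjusted p = 0.00386) and 3.35 ± 0.80 for Ankrd1 (adjusted p = 0.0101). None of the 6 passed for the change in strain difference between tables (0% of the 632 genes; 58 unadjusted) or for the change in tissue difference (1.11% of genes).

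The wider gene lists around the 6 were thinly covered by these small arrays. Of 9 tested stretch and stress genes, all 9 were above 0 for mdx minus BL10 in the L-arginine mean of both tissues, with a median of 0.24 against 0.06 over all genes, and Ankrd1 alone passed the test. Ankrd1 counts among the 9, and the list was chosen with earlier results of these data known. Apart from Ankrd1, none had an adjusted p under 0.503, and Hspa5, at 0.03, lay below the median of all genes. Within single tissues the direction was not uniform. Jun was at -0.09 in treated diaphragm, and Egr1 at -0.38 and Hspa5 at -0.08 in treated hindlimb, while the rest of the list was above 0 in each tissue. The others included Jun, an immediate early transcription factor, at 0.73 ± 0.60 (adjusted p = 0.602), Hmox1, the inducible heme oxygenase, at 0.63 ± 0.36 (adjusted p = 0.503), and the constitutive chaperone Hspa8 at 0.19 ± 0.13 (adjusted p = 0.580). Among untreated arrays 8 of the 9 were above 0, none past the test, where the median of all genes was itself 0.17.

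Of 8 tested genes of muscle formation and regeneration, 6 were above 0 in the L-arginine mean of both tissues, and 1 passed: Igf2, which encodes an insulin-like growth factor, higher in mdx by 1.52 ± 0.20 (adjusted p = 0.00445). Mstn, which encodes the growth inhibitor myostatin, was at -0.40 ± 0.14 (adjusted p = 0.269). Of 6 titin-linked genes 3 were above 0, with Ankrd1 the only one past the test; Ankrd23, a relative of Ankrd1 that also binds titin, was at -0.18 ± 0.25 (adjusted p = 0.741). Of 3 tubulin and microtubule genes 2 were above 0 and Tuba1a alone passed, with the dynein chain gene Dync1i2 at 0.39 ± 0.10 (adjusted p = 0.0897). None passed among the 3 intermediate filament and Z-disc genes, 2 of them above 0, or among the 5 actin cytoskeleton genes, 2 of them above 0.

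The genes with the most similar pattern were sought among the 392 with a value on every array, by the mean of the Pearson correlations over the 16 treated and the 18 untreated arrays. For Tuba1a these were Tnni1, the slow-fibre troponin I, at a mean of 0.71, Prkar1a, a regulatory subunit of protein kinase A, at 0.70, and Igf2 at 0.64. For Ttn they were Deptor, an inhibitor of mTOR, at 0.70, Uqcrc2, a subunit of respiratory complex III, at 0.60, and Ldhb, a lactate dehydrogenase chain, at 0.57. The other 4 had missing values in at least 1 table and were not ranked. Over the 16 treated arrays alone, a choice made after seeing the data, Ankrd1 came closest among 573 genes to Ddx21, an RNA helicase, at 0.81, then to Tuba1a at 0.73 and Tnni1 at 0.72. These arrays share the strain and tissue groups, so the correlations describe a shared order of groups as much as a shared course with age, and carry no test. Over the 17 untreated arrays with values of both, the correlation of Ankrd1 with Tuba1a was 0.27, and that of Ankrd1 with Vim was 0.76. Ankrd1 was lowest on the 12-week BL10 hindlimb array. Leaving that array out, also a choice made after seeing the data, gave 0.47 with Tuba1a and 0.90 with Vim over 16 arrays. Among untreated arrays Ankrd1 and Vim were both highest on Sample 1 of mdx diaphragm (4.75 and 2.39) and next on Sample 1 of mdx hindlimb (2.68 and 1.76). The part of these arrays in the correlation was not tested.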

How the data were processed

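The deposited values were used as they stand: 1 score per probe and array, taken for a linear channel ratio because medians lie near 1, although some are negative. What the authors did to make these deposited scores (scanner, background correction, normalisation, dyes) the sources used here do not state, so scale, centring and direction stay unknown. Probes were named from the platform annotation only where it lists 1 symbol (812 of 1200 in each table).

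Positive values were turned into log2, values of 0 or below became missing, and probes were averaged per gene. Genes with values on 75% or more of a table's arrays were tested with limma 3.58.1 in R 4.3.3 (moderated variance, group and age as terms, Benjamini-Hochberg at 0.05): 633 genes of the L-arginine table, 637 untreated and 632 in both together. The code was tested on simulated data, and figures were drawn with Python 3.11.15 and matplotlib 3.10.9. Other scalings, filters, per-probe fits and fits without single arrays were tried. The 6 genes, all gene and marker lists, the motifs and the tests were chosen with earlier results of these data known. Named genes are the 6, called list members, at most 4 per list, and the 3 genes most alike in pattern. Jun, Hmox1, Hspa8, Hspa5, Egr1, Mstn, Ankrd23, Dync1i2, Col5a2 and Fmod were named after their values were seen. The number of arrays limits the precision.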

Additional observations from a re-analysis of the deposited data

Results flagged for a closer look

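In groups of 4 or 5 arrays, a value was singled out when the highest or lowest array lay far from the others relative to the whole range of the group. Of 41 groups of a gene tested this way 3 were singled out, and chance alone singles out about 1 in 20. Ankrd1 in untreated mdx diaphragm was highest on Sample 1 at 12 weeks, at a log2 ratio of 2.25 (ratio 4.75), with the other 4 arrays between 0.91 and 1.15. Des in untreated mdx hindlimb was lowest on Sample 2 at 12 weeks, at a log2 ratio of -0.58 (ratio 0.67), with the other 4 between 1.05 and 1.26. Vim in L-arginine-treated BL10 diaphragm was highest at 5 weeks, at a log2 ratio of 0.070 (ratio 1.05), with the other 3 at 0.84 or 0.85.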

How the results depend on the processing

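Of 678 counts of called genes recomputed under alternatives, 645 were within 1.5 times the reported count and 33 were not. The reported count was 0 in every comparison but 1, and a 0 that stayed 0 is among the 645, so that share does not measure how stable the calls were. The exception was mdx minus BL10 in the L-arginine mean of both tissues. Its count of 2 became 0 with arrays centred and scaled, with quantile normalisation and without 12-week arrays. When 1 array was left out it was 0 to 2, and moved in 14 of the 16 fits. Ankrd1 passed in 22 of 27 alternatives (adjusted p 0.00331 to 0.214) and Tuba1a in 10 of 27 (adjusted p 0.0106 to 0.429). In L-arginine hindlimb the count of 0 became 1 in the fit per probe, with values on every array and with no age term, 2 with the print-order trend removed, and 0 to 1 when 1 array was left out. In L-arginine diaphragm array weights gave 1 (Ankrd1). Between tables, BL10 diaphragm gave 1 with array weights, mdx diaphragm gave 1 without 12-week arrays, and BL10 hindlimb gave 1 with values on every array, 1 with no age term, 2 with values of 0 or below at the lowest positive value, and 0 to 2 when 1 array was left out. That setting of values of 0 or below also turned the change in the Myod1 strain difference between tables, 0.91, to -0.73. The Ankrd1 strain difference in untreated diaphragm, 0.51, turned to -0.058 without 12-week arrays and lay between -0.036 (without Sample 1 of mdx diaphragm) and 0.86 with 1 array left out. The cause of these shifts was not tested. Arrays of 1 age were matched across groups through the age term, and the fits without it are given above; Sample 1 and Sample 2 were not used as a further pairing.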
